A study of Homo sapiens with 12 samples.

Results

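The 34 genes described here are direct transcriptional targets of the tumour suppressor p53, taken as a named list from the known pathway. The list was chosen with earlier results of these data known. The counts below therefore describe its members and not p53 targets in general. All 34 were among the 78930 genes of the deposited table, and 33 of them were among the 24064 genes with enough counts to be tested. By function, 5 act in cell cycle arrest, 4 in feedback on p53, 14 in apoptosis or survival, 5 in DNA repair and nucleotide supply, 5 in metabolism and mitochondria, and 1 encodes a secreted factor.

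RNA was sequenced from OCI-AML3, an established line of human acute myeloid leukaemia with a mutant nucleophosmin (NPM1c). The cell line label names this line for 1 library and gives each other library the same name with a different, rising number, while the treatment protocol of all libraries and the design text name OCI-AML3. In the cells used here the endogenous NPM1c carried a degron, a tag that lets the small molecule dTAG-13 send the protein for degradation, and the design text gives the other NPM1 allele as wild type; all 4 groups share this genotype. In dTAG FL-NPM1c, the cells carried a virus for full-length NPM1c with mCherry; in dTAG Cbodynull, a virus for a form that the labels call Cbodynull, with mCherry; and in dTAG mCherry, a virus for mCherry alone. These cells were given 500 nM dTAG-13 at 48 hours after transduction and sorted for mCherry 24 hours later. The fourth group, NTC DMSO, is named in its titles for the solvent, and its labels name no viral construct. Its treatment label reads dTAG while its titles read DMSO. In every comparison with NTC DMSO, dTAG-13, the virus and the sort therefore cannot be told apart. Each group had 3 libraries, and the labels do not say that they came from separate cultures, so the p-values measure the spread between these libraries, which may be technical.

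p53 is a transcription factor that is held at a low level by MDM2, a ubiquitin ligase whose own gene p53 activates. When it is stabilised, it raises genes that stop the cell cycle, repair DNA, change metabolism or drive apoptosis, and it lowers many cell cycle genes indirectly, through the inhibitor p21 and the DREAM repressor complex. Nucleophosmin is a nucleolar protein that is known to bind MDM2 and the MDM2 inhibitor ARF, and the mutant NPM1c is known to move to the cytoplasm.

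The 12 libraries held 30519165 to 59925564 gene counts. NPM1 RNA cannot check the degradation of a protein, and its counts do not separate the endogenous alleles from a transgene. It was 1608 to 1684 CPM in dTAG FL-NPM1c, 1897 to 1937 CPM in dTAG Cbodynull, 1059 to 1387 CPM in dTAG mCherry and 1296 to 1515 CPM in NTC DMSO (CPM, gene counts scaled to a common library size after TMM adjustment). The myeloid genes PTPRC, CD33, SPI1, CEBPA, MPO and CSF3R were detected, with a summed level of 683 to 863 CPM. Markers of other cell types had summed levels of 0.725 to 1.37 CPM for T and NK cells, 0.0825 to 0.541 CPM for B and plasma cells, 0.149 to 0.606 CPM for erythroid cells and megakaryocytes, and 0.524 to 1.98 CPM for epithelium and fibroblasts. Of these lists, 4 of 6, 0 of 5, 2 of 6 and 1 of 6 genes were at 0 counts in all 12 libraries, CD3E and EPCAM among them. The collagen gene COL1A2 and the B cell factor gene PAX5, both at low levels, were called in some comparisons. Libraries of a group also differed among themselves. The most members lay below or above both other libraries of the group in dTAG FL-NPM1c replicate 3 (16 below and 13 above, of 33 tested), dTAG Cbodynull replicate 3 (16 and 15), dTAG mCherry replicates 2 (16 and 15) and 3 (10 and 16) and NTC DMSO replicate 3 (15 and 16). The median size of the difference to the mean of the other libraries (log2) was 0.13 in dTAG FL-NPM1c replicate 3, 0.145 in dTAG Cbodynull replicate 3, 0.22 and 0.198 in dTAG mCherry replicates 2 and 3, and 0.258 in NTC DMSO replicate 3. The same 15 members were low and the same 15 were high in dTAG mCherry replicate 2 and NTC DMSO replicate 3, and the first count below is given with and without this pair.

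The first comparison set cells with dTAG-13 and mCherry alone against NTC DMSO. Of the 33 tested members, 29 rose and none fell in dTAG mCherry (edgeR quasi-likelihood test, Benjamini-Hochberg adjusted p under 0.05 over all genes tested, here "called"), against 12.9% of all genes tested called higher and 9.69% called lower. At an unadjusted p under 0.05 the counts were 31 and 0. The share of all genes tested at this unadjusted limit was not computed, here or in later comparisons. Unadjusted counts are therefore a description only and cannot be set against the shares of called genes. The members' median log2 fold change was 0.78, against -0.00 for all genes tested. Of the called members, 15 were at least 2-fold higher, as were 1162 called genes of the 24064 tested. SPATA18, at few counts, is among the 29 and the 15. For 30 members every dTAG mCherry library lay above every NTC DMSO library, which held for 17.8% of all genes tested. Without dTAG mCherry replicate 2 and NTC DMSO replicate 3, a fit added after seeing the data, 28 were called and none fell. Markers of monocytes and macrophages moved in the same comparison: 12 of 12 rose, by a median of 2.99 on the log2 scale, and their summed level was 3670 to 4070 CPM in dTAG mCherry and 555 to 590 CPM in NTC DMSO. The part of this shift in the members' values was not tested. In bulk RNA, more cells with a high level and more RNA per cell cannot be told apart.

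All 5 arrest genes rose. CDKN1A, which encodes the cyclin-dependent kinase inhibitor p21 (ENSG00000124762, chr6:36676460-36687339, plus strand, GRCh38), had 246, 259 and 227 CPM in dTAG mCherry, against 32.3, 32.4 and 38.2 CPM in NTC DMSO. The lowest dTAG mCherry library was far above the highest NTC DMSO library, and the log2 fold change was 2.83 ± 0.09 (SE, n = 3 libraries each, edgeR adjusted p = 6.56e-12). BTG2, an antiproliferative regulator of transcription and mRNA decay, had 54.7, 45.4 and 56.1 CPM in dTAG mCherry and 14.7, 14.8 and 14.7 CPM in NTC DMSO, a difference of 1.82 ± 0.10. The groups did not overlap, and NTC DMSO varied very little. The kinase PLK2 (1.69 ± 0.13) and the growth arrest gene GADD45A (1.55 ± 0.15) rose by a similar amount. The kinase PLK3 rose less, with 4.26, 5.40 and 4.71 CPM in dTAG mCherry and 3.10, 3.13 and 3.70 CPM in NTC DMSO (0.54 ± 0.13, edgeR adjusted p = 0.00632).

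Among the 4 feedback genes, 3 rose. MDM2 (ENSG00000135679, chr12:68808176-68850686, plus strand, GRCh38) had 220, 200 and 246 CPM in dTAG mCherry, against 112, 101 and 88.0 CPM in NTC DMSO, with no overlap and a log2 fold change of 1.14 ± 0.11 (edgeR adjusted p = 6.3e-07). RPS27L, a ribosomal protein paralog known to interact with MDM2, had 88.1, 69.5 and 92.3 CPM in dTAG mCherry and 49.2, 48.1 and 42.9 CPM in NTC DMSO (0.83 ± 0.10). In both genes replicate 2 was the lowest dTAG mCherry library and replicate 3 the lowest NTC DMSO library. CCNG1, cyclin G1, which recruits a phosphatase to MDM2, rose by 0.59 ± 0.12. PPM1D, the phosphatase WIP1 that removes activating phosphates from p53, was at -0.05 ± 0.09 (edgeR adjusted p = 0.721), and its libraries overlapped between the groups.

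Of the 13 tested genes of apoptosis and survival, 12 rose. CYFIP2, a cytoplasmic partner of FMRP and a known p53 target, had 19.0, 24.1 and 22.2 CPM in dTAG mCherry, against 3.17, 3.80 and 4.17 CPM in NTC DMSO (2.55 ± 0.12, edgeR adjusted p = 2.63e-10). TP53INP1, a stress protein that assists p53 and autophagy, had 25.4, 23.2 and 28.3 CPM in dTAG mCherry and 4.89, 5.83 and 5.15 CPM in NTC DMSO (2.27 ± 0.12). Neither gene overlapped between the groups. PHLDA3, an inhibitor of AKT signalling, had 20.5, 22.2 and 16.3 CPM in dTAG mCherry and 5.98, 4.98 and 6.76 CPM in NTC DMSO (1.74 ± 0.13). The decoy receptor gene TNFRSF10C (1.53 ± 0.22) and ZMAT3, an RNA-binding zinc finger protein (1.38 ± 0.11), also more than doubled.

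The other genes of this group are given next. BBC3, which encodes the BH3-only protein PUMA, had 3.92, 3.09 and 2.71 CPM in dTAG mCherry and 1.93, 1.63 and 2.14 CPM in NTC DMSO (0.77 ± 0.18, edgeR adjusted p = 0.00409). FAS, a death receptor, had 26.6, 23.7 and 27.4 CPM in dTAG mCherry and 17.1, 15.4 and 13.1 CPM in NTC DMSO (0.77 ± 0.10). The groups stood apart in both genes. BAX, the pore-forming effector in the mitochondrial membrane, had 78.5, 89.5 and 63.4 CPM in dTAG mCherry and 56.6, 52.1 and 68.3 CPM in NTC DMSO. Its groups overlapped, and its call (0.39 ± 0.12, edgeR adjusted p = 0.0298) ended under 6 of 14 alternatives, with adjusted p between 0.0567 and 0.11. The membrane protein NINJ1 (0.59 ± 0.15), the death receptor TNFRSF10B (0.44 ± 0.07), the mitochondrial survival factor TRIAP1 (0.44 ± 0.10) and the nuclease AEN (0.42 ± 0.08) rose by smaller amounts. PMAIP1, which encodes the BH3-only protein NOXA, was at -0.12 ± 0.11 (edgeR adjusted p = 0.473). EDA2R, a receptor for ectodysplasin, had too few counts to be tested: 1, 1 and 0 in dTAG mCherry and 0 in every NTC DMSO library. The dTAG mCherry counts lie under the 3 counts that a count of 0 allows, so no difference was detectable at this depth.

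**Figure D1:**
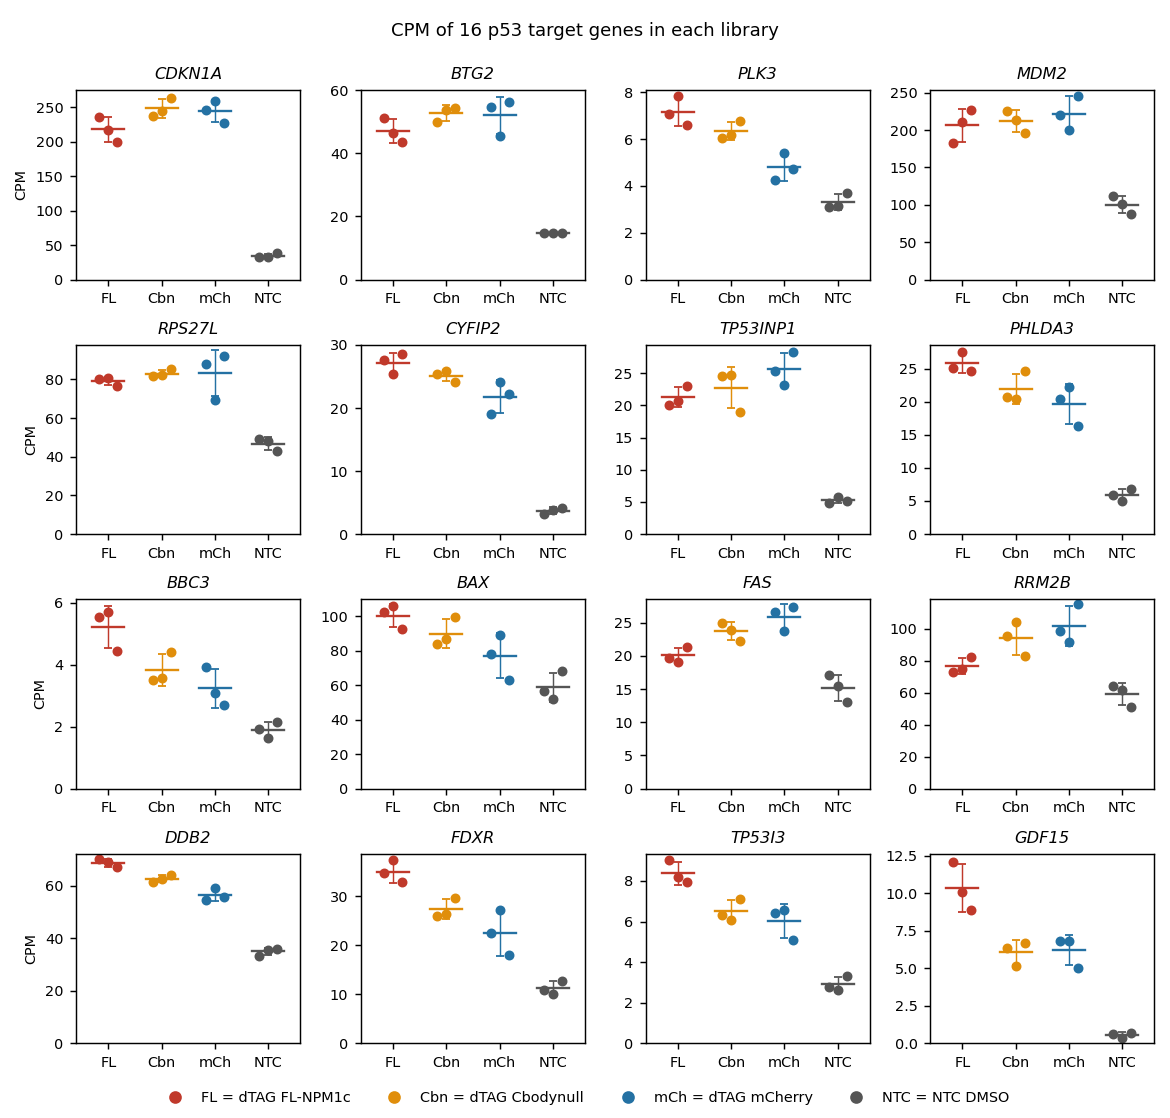
CPM of 16 members in each library (vertical axis, from 0; horizontal axis, the 4 groups). Points are libraries in replicate order, horizontal lines are means and error bars SD (n = 3); the 3 dTAG groups lie above NTC DMSO except in BAX, where dTAG mCherry (63.4 to 89.5 CPM) overlaps NTC DMSO (52.1 to 68.3 CPM).

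Of the 5 repair genes, 3 rose. RRM2B, the p53-induced subunit of ribonucleotide reductase, had 98.2, 91.5 and 115 CPM in dTAG mCherry, against 64.2, 61.5 and 51.2 CPM in NTC DMSO (0.78 ± 0.11, edgeR adjusted p = 6.08e-05). DDB2, which recognises ultraviolet damage for nucleotide excision repair (ENSG00000134574, chr11:47214465-47239240, plus strand, GRCh38), had 54.6, 59.0 and 55.7 CPM in dTAG mCherry and 33.4, 35.5 and 36.1 CPM in NTC DMSO (0.69 ± 0.07). Neither gene overlapped between the groups. XPC, another damage sensor of the same repair route, rose by 0.53 ± 0.08. POLH, a translesion polymerase, was at 0.27 ± 0.10 (edgeR adjusted p = 0.0593), and ASCC3, a helicase of alkylation repair, at 0.27 ± 0.10 (edgeR adjusted p = 0.0709). In POLH and ASCC3 every dTAG mCherry library was still above every NTC DMSO library.

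All 5 genes of metabolism and mitochondria were called higher, SPATA18 on few counts. TP53I3, a quinone oxidoreductase, had 6.44, 6.58 and 5.08 CPM in dTAG mCherry, against 2.75, 2.63 and 3.33 CPM in NTC DMSO (1.06 ± 0.14). FDXR, the mitochondrial ferredoxin reductase (ENSG00000161513, chr17:74862497-74873031, minus strand, GRCh38), had 22.5, 27.2 and 17.9 CPM in dTAG mCherry and 10.8, 10.1 and 12.8 CPM in NTC DMSO (1.01 ± 0.13). SESN1, a stress sensor that restrains mTORC1, rose by 1.05 ± 0.10, and TIGAR, a fructose bisphosphatase that lowers glycolysis, by 0.66 ± 0.10. SPATA18, which acts in the removal of damaged mitochondria, was near the limit of detection, with 6, 13 and 4 counts in dTAG mCherry and 1 count in each NTC DMSO library. The ratio of its summed counts per total count was 8.16, with an exact 95% interval from 2.47 to 42.5 that covers counting error only. SPATA18 entered the test only through dTAG libraries, so its call adds no support to the 29 members called, where it is counted.

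GDF15, a secreted stress cytokine of the TGF-beta family (ENSG00000130513, chr19:18374731-18389176, plus strand, GRCh38), had 6.80, 6.82 and 5.04 CPM in dTAG mCherry, against 0.595, 0.375 and 0.713 CPM in NTC DMSO. It had the largest log2 fold change of all members in this comparison, 3.48 ± 0.22 (edgeR adjusted p = 8.21e-09), from a low starting level.

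**Figure D2:**
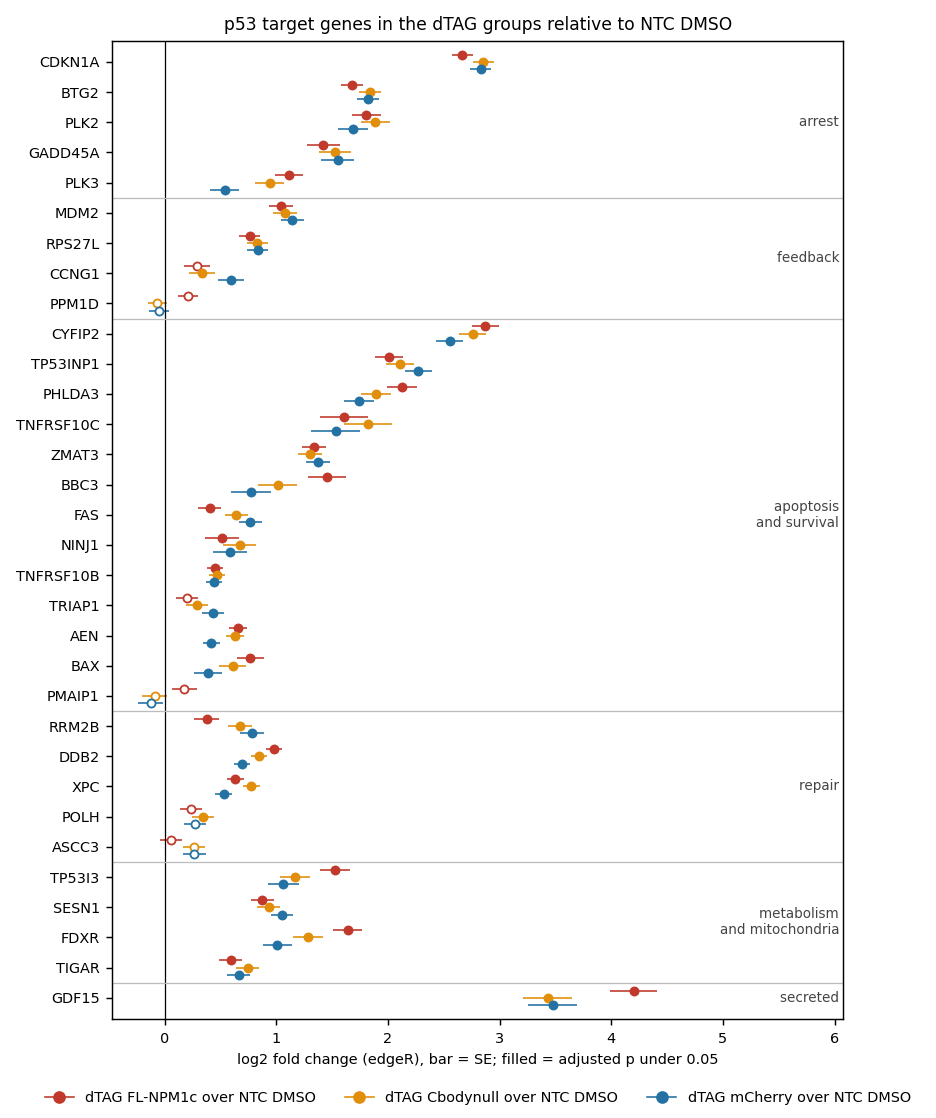
Log2 fold change over NTC DMSO (horizontal axis; bars SE, n = 3 libraries each) of 32 members grouped by function, for each dTAG group; filled points have an adjusted p under 0.05. SPATA18 and EDA2R are left out for their low counts; GDF15 (3.48 in dTAG mCherry) and CDKN1A (2.83) lie farthest to the right for dTAG mCherry, GDF15 (4.20) and CYFIP2 (2.87) for dTAG FL-NPM1c, and PPM1D and PMAIP1 lie near 0.

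The counts do not show how much of each signal comes from a neighbouring gene. Exons of 8 members overlap another gene that had at least 1000 counts in all, and the strand setting of the counting is not given in the sources used here. At MDM2, an antisense gene (AC025423.4) had 23008 counts and a processed pseudogene on the same strand (AC025423.2) had 11569, against 92622 for MDM2. Their log2 fold changes in dTAG mCherry over NTC DMSO were 1.15 ± 0.12 and 1.14 ± 0.12, almost that of MDM2. At FAS, ACTA2 on the other strand was at 2.09 ± 0.13. Antisense genes were also close to their member at SESN1 (AL390208.1, 1.08 ± 0.13) and XPC (AC093495.1, 0.54 ± 0.09). At TIGAR, AC008012.1 on the same strand had 7645 counts against 9547 and was at 0.52 ± 0.12. Other neighbours were not called: RHOBTB2 at TNFRSF10B (0.00 ± 0.09), GTPBP2 at POLH (-0.18 ± 0.10) and AC090004.1 at XPC (0.18 ± 0.09). LSM3 at XPC was called lower (-0.29 ± 0.10, edgeR adjusted p = 0.0455). A gene named CPM (not the unit), opposite MDM2 with 27563 counts, rose less than MDM2 (0.56 ± 0.09). FAM228B at TP53I3 was at 0.66 ± 0.12. Such genes were chosen after their values were seen, and reads that belong to more than 1 of them cannot be told apart here.

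The sequence before each gene was also read. The members are listed as direct targets of p53, so a p53 element in their promoters is not independent of the list. RefSeq promoters (GRCh38.p14, 250 bases before to 50 after each annotated start) were given for 27 of the 34 members, as 40 promoters. They were searched for the p53 response element, 2 palindromic repeats of 10 bases with a spacer of 0 or 1 base; both strands are read alike because the element is palindromic. At most 2 mismatches of 20 bases were found in 5 of the 40 member promoters (12.5%), from 4 genes, and in 1.34% of all 35116 promoters of the table. With at most 3 mismatches these shares were 37.5% and 9.75%. The limit of 2 was set after looking at the windows, so the shares describe these windows and test nothing; sites in introns or further upstream lie outside them. Of the 33 tested members 29 (87.9%) rose in dTAG mCherry over NTC DMSO, and a link between the element and the rise was not tested. The 4 genes with at most 2 mismatches, MDM2, FAS, AEN and DDB2, were all among these 29. Their elements are shown 5′ to 3′ on the gene's strand because they let the reader see how close each one is to the shared pattern; capitals mark the 4 central bases of each repeat.
MDM2, chr12:68808923-68808942, plus strand: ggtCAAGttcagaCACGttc
FAS, chr10:88991309-88991328, plus strand: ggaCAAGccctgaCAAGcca
AEN, chr15:88621306-88621325, plus strand: gggCTTGcccgggCATGtgg
DDB2, chr11:47214979-47214999, plus strand: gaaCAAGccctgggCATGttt
GDF15, chr19:18386186-18386205, plus strand: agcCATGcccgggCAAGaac
The DDB2 element had 0 mismatches with a spacer of 1 base. That of GDF15, shown because GDF15 differed most between groups, had 3 mismatches, as had the best windows of RPS27L, PMAIP1, CYFIP2, XPC, SESN1, FDXR and SPATA18. PMAIP1 holds such a window and did not pass the test.

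Both groups that received an NPM1c construct were also set against NTC DMSO; all comparisons with NTC DMSO share its 3 libraries, so they are not independent. In dTAG FL-NPM1c 27 of the 33 tested members rose and none fell, against 14.6% of all genes tested called higher and 13.3% called lower. In dTAG Cbodynull 30 rose and none fell, against 14.1% and 12.4%. The unadjusted counts were 30 and 0 for dTAG FL-NPM1c and 31 and 0 for dTAG Cbodynull. The medians were 0.98 in dTAG FL-NPM1c and 0.93 in dTAG Cbodynull. GDF15 was again the member with the largest log2 fold change, 4.20 ± 0.21 in dTAG FL-NPM1c and 3.43 ± 0.22 in dTAG Cbodynull, and CDKN1A was at 2.67 ± 0.09 in dTAG FL-NPM1c and 2.86 ± 0.09 in dTAG Cbodynull. All 5 arrest genes, all 5 genes of metabolism and mitochondria and GDF15 were called higher in both groups. SPATA18 is among them and among the 27 and 30 members called, though it entered the test only through dTAG libraries. Of the 4 feedback genes 2 rose in dTAG FL-NPM1c and 3 in dTAG Cbodynull, of the 13 tested apoptosis and survival genes 11 and 12, and of the 5 repair genes 3 and 4. Every dTAG FL-NPM1c library lay above every NTC DMSO library for 30 members (23.2% of all genes tested), and every dTAG Cbodynull library for 31 (21.1%). In all, 27 members rose in all 3 dTAG groups, SPATA18 among them. For 28 members, SPATA18 again included, all 9 dTAG libraries lay above all 3 NTC DMSO libraries. The 5 others were ASCC3, BAX, CCNG1, PMAIP1 and PPM1D. The shares of all genes tested that did the same were not computed, so these joint counts are a description only.

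CCNG1 and TRIAP1 were called in dTAG Cbodynull and dTAG mCherry. In dTAG FL-NPM1c CCNG1 was at 0.29 ± 0.12 (edgeR adjusted p = 0.0722) and TRIAP1 at 0.20 ± 0.10 (edgeR adjusted p = 0.135). POLH was called in dTAG Cbodynull alone, at 0.35 ± 0.10, against 0.24 ± 0.10 in dTAG FL-NPM1c. PPM1D, PMAIP1 and ASCC3 were called in none of the 3, and the PPM1D values were 0.21 ± 0.09 in dTAG FL-NPM1c (edgeR adjusted p = 0.0869) and -0.06 ± 0.09 in dTAG Cbodynull. Some of these calls were near the threshold. In dTAG Cbodynull, CCNG1, TRIAP1 and POLH lost theirs under 7, 6 and 2 of 13 alternatives. In dTAG FL-NPM1c, NINJ1 lost its call under 3 and RRM2B under 4. Of the monocyte and macrophage markers, 10 rose and 1 fell in dTAG FL-NPM1c and 12 of 12 rose in dTAG Cbodynull, with summed levels of 3270 to 3480 CPM in dTAG FL-NPM1c and 4830 to 5030 CPM in dTAG Cbodynull. EDA2R had 5, 3 and 2 counts in dTAG FL-NPM1c and 0, 1 and 3 in dTAG Cbodynull. SPATA18 had 33 counts over the dTAG FL-NPM1c libraries and 25 over the dTAG Cbodynull libraries, against 3 in NTC DMSO.

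Full-length NPM1c was next set against mCherry, both with dTAG-13 and a virus, to see what the added protein changed. In dTAG FL-NPM1c 9 of 33 members rose (27.3%) and 2 fell (6.06%), against 7.58% of all genes tested called higher and 7.95% called lower. The median of the members was 0.01, against -0.00 for all genes tested, and no called member differed by 2-fold. The groups did not overlap for 13 members that were higher and 3 that were lower in dTAG FL-NPM1c, which held for 16.4% and 16.0% of all genes tested. The count moved with single libraries. It was 3 without dTAG FL-NPM1c replicate 1 or replicate 2 and 9 without replicate 3. It was 6 without dTAG mCherry replicate 1 or replicate 3, and 17 (10 higher and 7 lower) without dTAG mCherry replicate 2. The count over all genes, 3735 in the reported fit, moved the same way. It was 1834, 1621 and 2879 without dTAG FL-NPM1c replicates 1, 2 and 3. Without dTAG mCherry replicates 1, 2 and 3 it was 2186, 6834 and 1874. PLK3, FDXR and GDF15 were called under each of the 13 alternatives that kept the threshold, and these 3 were also the members called at an adjusted p under 0.01.

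GDF15 had 12.1, 10.1 and 8.91 CPM in dTAG FL-NPM1c, against 6.80, 6.82 and 5.04 CPM in dTAG mCherry. Every FL-NPM1c library was the higher one, and the log2 fold change was 0.73 ± 0.16 (edgeR adjusted p = 0.00636), between 0.57 and 0.83 with each library left out in turn. FDXR had 34.8, 37.4 and 32.9 CPM in dTAG FL-NPM1c and 22.5, 27.2 and 17.9 CPM in dTAG mCherry (0.63 ± 0.13, edgeR adjusted p = 0.00404; 0.49 to 0.79 with a library left out). PLK3 had 7.06, 7.86 and 6.63 CPM in dTAG FL-NPM1c and 4.26, 5.40 and 4.71 CPM in dTAG mCherry (0.58 ± 0.12, edgeR adjusted p = 0.00551; 0.47 to 0.68 with a library left out). In FDXR and PLK3 the highest dTAG mCherry library was replicate 2, and it lay below all dTAG FL-NPM1c libraries.

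The other 6 that rose were BBC3, BAX, PHLDA3, CYFIP2, DDB2 and TP53I3. BBC3 had 5.53, 5.69 and 4.45 CPM in dTAG FL-NPM1c and 3.92, 3.09 and 2.71 CPM in dTAG mCherry (0.68 ± 0.16). BAX had 103, 106 and 92.8 CPM in dTAG FL-NPM1c and 78.5, 89.5 and 63.4 CPM in dTAG mCherry (0.38 ± 0.12). The pair of apoptosis genes stood apart between the groups, as did the next 4. PHLDA3 had 25.2, 27.5 and 24.7 CPM in dTAG FL-NPM1c and 20.5, 22.2 and 16.3 CPM in dTAG mCherry (0.38 ± 0.12). CYFIP2 had 27.6, 25.4 and 28.5 CPM in dTAG FL-NPM1c and 19.0, 24.1 and 22.2 CPM in dTAG mCherry (0.32 ± 0.10). The smallest of these differences was that of DDB2, where all values of a group lay close together. DDB2 had 70.4, 69.0 and 67.3 CPM in dTAG FL-NPM1c and 54.6, 59.0 and 55.7 CPM in dTAG mCherry (0.29 ± 0.07). TP53I3 had 9.02, 8.19 and 7.92 CPM in dTAG FL-NPM1c and 6.44, 6.58 and 5.08 CPM in dTAG mCherry (0.47 ± 0.12).

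FAS and RRM2B fell. FAS had 19.7, 19.1 and 21.4 CPM in dTAG FL-NPM1c, against 26.6, 23.7 and 27.4 CPM in dTAG mCherry (-0.36 ± 0.10, edgeR adjusted p = 0.0245). RRM2B had 72.8, 74.7 and 82.0 CPM in dTAG FL-NPM1c and 98.2, 91.5 and 115 CPM in dTAG mCherry (-0.41 ± 0.11, edgeR adjusted p = 0.0198). Each of these 8 calls, the 6 higher and 2 lower, was lost under at least 2 of the 13 alternatives, PHLDA3 and CYFIP2 under 8 and BAX under 7. CDKN1A was not called and overlapped between the groups, with 236, 217 and 200 CPM in dTAG FL-NPM1c and 246, 259 and 227 CPM in dTAG mCherry (-0.16 ± 0.09, edgeR adjusted p = 0.211). MDM2 was at -0.10 ± 0.10 (edgeR adjusted p = 0.521). The monocyte and macrophage markers that moved in this comparison were lower, 4 of 12 called. Their part in the members' values was not tested.

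**Figure D3:**
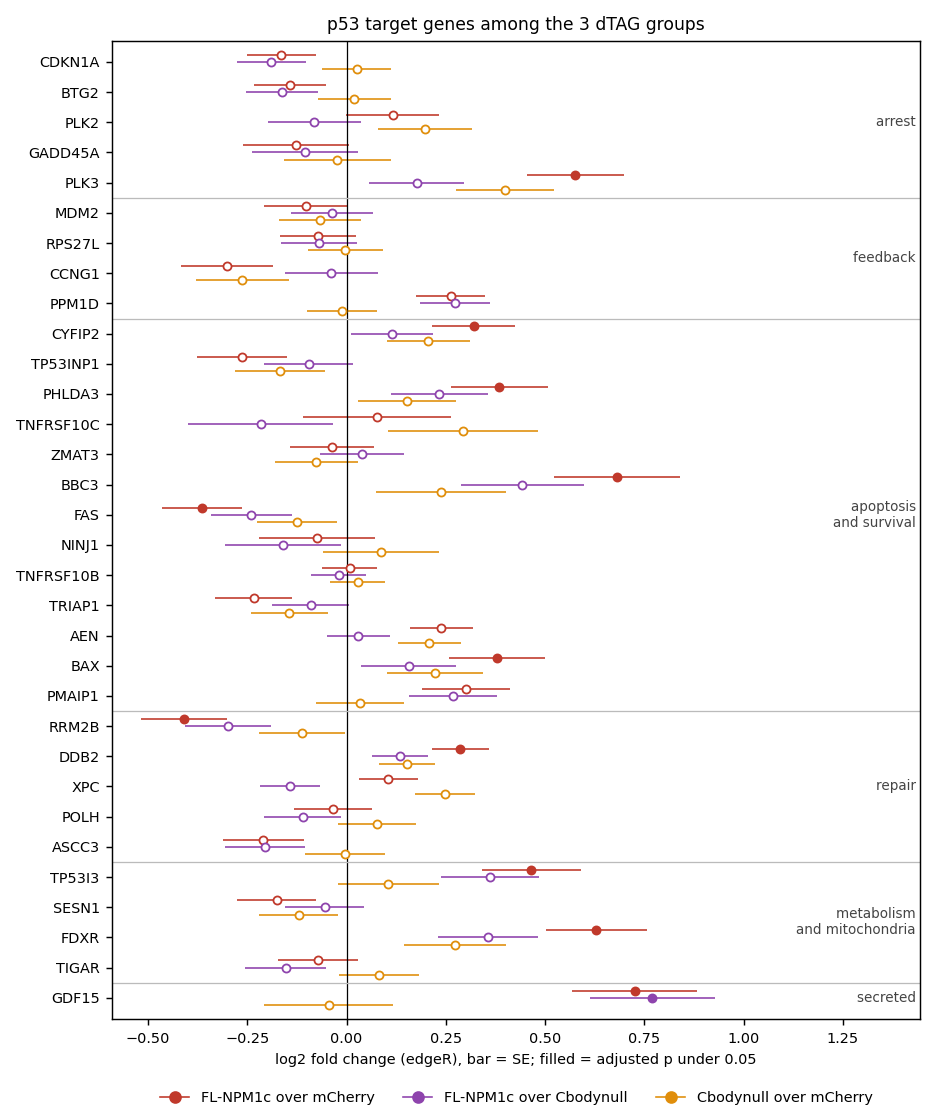
Log2 fold change (horizontal axis; bars SE, n = 3 libraries each) of 32 members in the comparisons among the 3 dTAG groups, grouped by function; filled points have an adjusted p under 0.05. FL-NPM1c over mCherry has 11 filled points, 9 right of 0, and FL-NPM1c over Cbodynull has GDF15 as its filled point.

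The Cbodynull construct was set against mCherry in the same way. No member was called in dTAG Cbodynull over dTAG mCherry (edgeR, 0 higher and 0 lower of 33), against 0.216% of all genes tested called higher and 0.378% called lower, so few genes of any kind were called. At an unadjusted p under 0.05, for which no share of all genes was computed, 5 were higher (PLK3, AEN, XPC, DDB2 and FDXR) and CCNG1 was lower. DESeq2 called XPC, and without dTAG mCherry replicate 2 edgeR called FDXR and PLK3. The members' log2 fold changes lay between -0.26 (CCNG1) and 0.40 (PLK3), with a median of 0.03. PLK3 had 6.05, 6.20 and 6.77 CPM in dTAG Cbodynull, against 4.26, 5.40 and 4.71 CPM in dTAG mCherry (0.40 ± 0.12, edgeR adjusted p = 0.22). The groups did not overlap for 5 members that were higher, PLK3, TNFRSF10C, AEN, XPC and DDB2, and for 0 that were lower, which held for 7.36% and 7.60% of all genes tested. A test that was not passed does not show that the groups were alike.

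The 2 NPM1c constructs were then compared with each other. GDF15 rose in dTAG FL-NPM1c over dTAG Cbodynull and was the only member of 33 called, with 0 called lower, against 4.82% of all genes tested called higher and 4.86% called lower. It had 12.1, 10.1 and 8.91 CPM in dTAG FL-NPM1c, against 6.35, 5.14 and 6.70 CPM in dTAG Cbodynull. The groups stood apart, and the log2 fold change was 0.77 ± 0.16 (edgeR adjusted p = 0.00422). At an unadjusted p under 0.05, 6 members were higher and 3 were lower. The median of the members was -0.04, and their groups did not overlap for 8 that were higher and 8 that were lower, against 18.1% and 17.1% of all genes tested. The count was 2 without dTAG Cbodynull replicate 3, with DESeq2 and with library totals only, 3 with no low-count filter, and 7 where the libraries of these groups alone were fitted. Of the 12 monocyte and macrophage markers, 7 were called lower and 0 higher in dTAG FL-NPM1c over dTAG Cbodynull, with a median of -0.55. Their part in the members' values was not tested.

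Members called in FL-NPM1c over mCherry are given next with their levels in dTAG Cbodynull. PLK3 overlapped between the constructs, with 6.05, 6.20 and 6.77 CPM in dTAG Cbodynull, and differed by 0.18 ± 0.12 in dTAG FL-NPM1c over dTAG Cbodynull (edgeR adjusted p = 0.386). FDXR had 25.9, 26.4 and 29.7 CPM in dTAG Cbodynull and differed by 0.36 ± 0.13 in dTAG FL-NPM1c over dTAG Cbodynull (edgeR adjusted p = 0.0886). BBC3 had 3.49, 3.57 and 4.41 CPM in dTAG Cbodynull (0.44 ± 0.16, edgeR adjusted p = 0.0863). TP53I3 had 6.32, 6.10 and 7.13 CPM in dTAG Cbodynull (0.36 ± 0.12, edgeR adjusted p = 0.0789), close to its level in dTAG mCherry. For these 3 genes every dTAG FL-NPM1c library lay above every dTAG Cbodynull library. RRM2B had 95.3, 104 and 82.8 CPM in dTAG Cbodynull (-0.30 ± 0.11, edgeR adjusted p = 0.0989) and FAS 25, 23.9 and 22.3 CPM (-0.24 ± 0.10, edgeR adjusted p = 0.154), all above the dTAG FL-NPM1c libraries. BAX had 83.9, 86.9 and 99.5 CPM in dTAG Cbodynull, PHLDA3 20.7, 20.5 and 24.6, CYFIP2 25.4, 25.9 and 24.1, and DDB2 61.4, 62.5 and 64.2. None of these 4 was called between the constructs, and BAX and CYFIP2 overlapped.

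Levels were compared between genes per length. The scale is FPKM, here the CPM per kilobase of annotated exon. All annotated exons of a gene count towards its length, 9127 bases for RPS27L and 3050 for CDKN1A. The lengths of the transcripts present were not measured, so the order of genes below holds for this length only. CDKN1A had the highest FPKM of the members in each dTAG group. It was at 71.4 ± 6.03 in dTAG FL-NPM1c, 81.4 ± 4.40 in dTAG Cbodynull and 79.9 ± 5.25 in dTAG mCherry (SD, n = 3). In NTC DMSO it was the fifth, at 11.2 ± 1.11, below CCNG1 (34.2 ± 6.17), TRIAP1 (31.5 ± 3.35), BAX (22.8 ± 3.25) and TNFRSF10B (19.4 ± 0.69). CCNG1 and TRIAP1 did not differ beyond their spread in NTC DMSO. In dTAG mCherry CCNG1 was at 51.6 ± 6.85, TRIAP1 at 42.6 ± 5.48 and BAX at 29.8 ± 5.06 FPKM. GDF15 was at 2.98 ± 0.49 FPKM in dTAG mCherry, BBC3 at 1.02 ± 0.20 and SPATA18 at 0.04 ± 0.02.

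The spread within groups was not shared out evenly. The median SD of log2 CPM over the members was 0.09 in dTAG FL-NPM1c, 0.09 in dTAG Cbodynull, 0.17 in dTAG mCherry and 0.17 in NTC DMSO. In dTAG mCherry replicate 2, GADD45A lay 0.42 (log2) below the mean of the other 2 libraries; in NTC DMSO replicate 3, CCNG1 lay 0.45 below and TNFRSF10C 0.68 above. The 15 members that were low in both libraries included MDM2, CCNG1, RPS27L, FAS, RRM2B and SESN1, and the 15 that were high in both included BAX, PHLDA3, CYFIP2, DDB2, FDXR and TP53I3. Of the 9 members that rose in FL-NPM1c over mCherry, 8 were in the second set and the 2 that fell were in the first; BBC3 was in neither. What sets these libraries apart was not tested. Some of these steps were very small: BTG2 was at 14.7 to 14.8 CPM in all NTC DMSO libraries.

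**Figure D4:**
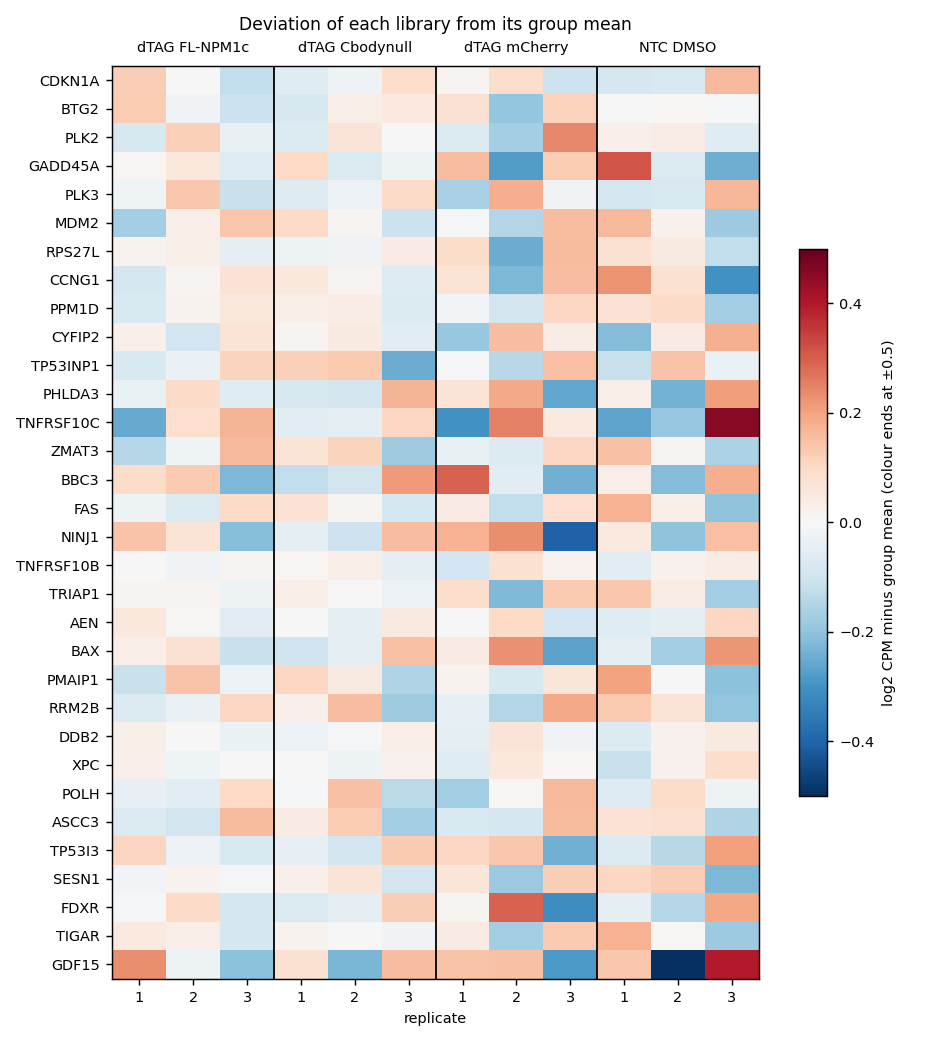
Log2 CPM of 32 members (rows, by function) in each of 12 libraries (columns) minus the mean of the library's group; red is above and blue below the group mean. Replicate 2 of dTAG mCherry and replicate 3 of NTC DMSO share their pattern over rows, with CCNG1, RPS27L and SESN1 low and BAX, PHLDA3 and FDXR high.

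Other genes of the pathway were read from 3 lists. Of 26 regulators of p53, 4 rose and 3 fell in dTAG mCherry over NTC DMSO (15.4% and 11.5%, near the 12.9% and 9.69% of all genes tested). MDM4, the MDM2 partner that restrains p53, rose by 0.27 ± 0.09 (edgeR adjusted p = 0.046) in dTAG mCherry, with libraries that overlapped those of NTC DMSO. CDKN2A, the locus of ARF and of the kinase inhibitor p16, had 6.69, 6.84 and 6.41 CPM in dTAG mCherry and 2.18, 2.35 and 2.70 CPM in NTC DMSO (1.47 ± 0.13); counts per gene do not separate its products. The p53 kinase HIPK2 (0.89) and the damage kinase ATM (0.37) also rose, and the kinase CHEK1 (-0.56), the methyltransferase KMT5A (-0.48) and the damage adaptor TP53BP1 (-0.25) fell.

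Among 41 tested further p53 targets, 18 rose and none fell in dTAG mCherry over NTC DMSO. That is 43.9% higher, against 12.9% of all genes tested, with a median of 0.23. At an unadjusted p under 0.05 the counts were 21 and 1. Over NTC DMSO, 22 rose and 2 fell in dTAG FL-NPM1c (53.7% and 4.88%, against 14.6% and 13.3% of all genes tested). In dTAG Cbodynull 20 rose and 0 fell (48.8% higher, against 14.1%). The lysosomal fucosidase FUCA1 had 152, 114 and 166 CPM in dTAG mCherry and 19.1, 17.9 and 16.5 CPM in NTC DMSO (3.01). MIR34AHG, the host gene of the microRNA miR-34a, had 10.9, 10.5 and 11.5 CPM in dTAG mCherry and 1.88, 2.20 and 2.43 CPM in NTC DMSO (2.34). TRIM22, an antiviral ubiquitin ligase, had 108, 104 and 125 CPM in dTAG mCherry and 27.1, 27.1 and 21.9 CPM in NTC DMSO (2.15). All 20 genes known to be repressed through p21 and DREAM fell, by 0.32 to 0.74 on the log2 scale, against 9.69% of all genes tested called lower. E2F1, a driver of S phase entry, had 28.1, 32.3 and 23.3 CPM in dTAG mCherry and 43.7, 43.9 and 52.8 CPM in NTC DMSO (-0.74). FOXM1, a transcription factor of mitotic genes, fell by a similar amount (-0.69). In dTAG FL-NPM1c over NTC DMSO 16 of these 20 fell, against 13.3% of all genes tested called lower. In dTAG Cbodynull over NTC DMSO all 20 fell, against 12.4% of all genes tested. CHEK1 is in this list and among the regulators.

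The lists were also read in the comparisons among dTAG groups. In dTAG FL-NPM1c over dTAG mCherry, 1 of 41 further targets rose and 7 fell (2.44% and 17.1%, against 7.58% and 7.95% of all genes tested). At an unadjusted p under 0.05 these counts were 10 and 13. In dTAG FL-NPM1c over dTAG Cbodynull 0 rose and 7 fell (17.1% lower, against 4.86% of all genes tested), and the unadjusted counts were 5 and 10. TNFAIP8, an inhibitor of apoptosis, had 29.7, 35.2 and 35.3 CPM in dTAG FL-NPM1c, 66.7, 59.1 and 57.9 CPM in dTAG Cbodynull and 58.5, 51.5 and 61.0 CPM in dTAG mCherry. Its log2 fold change was -0.77 over dTAG mCherry (edgeR adjusted p = 0.00123) and -0.87 over dTAG Cbodynull (edgeR adjusted p = 0.000353). FUCA1 fell in dTAG FL-NPM1c over dTAG mCherry (-0.67) and over dTAG Cbodynull (-0.52), TRIM22 fell over dTAG mCherry (-0.47) and over dTAG Cbodynull (-0.55), and TRAF4, an adaptor of receptor signalling, rose over dTAG mCherry (0.53). Of the 20 genes repressed through p21 and DREAM, 7 rose over dTAG mCherry (35.0%, against 7.58% of all genes tested) and 5 over dTAG Cbodynull (25%, against 4.82%), with none called lower by edgeR in either comparison. At an unadjusted p under 0.05 the counts were 9 higher and 1 lower over dTAG mCherry and 12 higher and 0 lower over dTAG Cbodynull. CDC20, an activator of the anaphase-promoting complex, had 185, 181 and 174 CPM in dTAG FL-NPM1c, 129, 136 and 143 CPM in dTAG Cbodynull and 111, 130 and 96.2 CPM in dTAG mCherry (0.68 over dTAG mCherry and 0.41 over dTAG Cbodynull). MYBL2, a transcription factor of the cell cycle, rose by 0.43 over dTAG mCherry, and E2F1 by 0.39 over dTAG mCherry and 0.41 over dTAG Cbodynull. These comparisons share libraries and are not independent of each other.

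Among the regulators, 3 rose and 3 fell in dTAG FL-NPM1c over dTAG mCherry (11.5% each way, against 7.58% and 7.95% of all genes tested), and 0 rose and 4 fell over dTAG Cbodynull (15.4% lower, against 4.86%). TP63, a p53 family member at a low level, had 2.29, 2.15 and 2.44 CPM in dTAG FL-NPM1c and 0.939, 1.20 and 1.27 CPM in dTAG mCherry (1.02), and NPM1 rose by 0.40. HIPK2 and ATM fell over dTAG mCherry (-0.57 and -0.48), and HIPK2, CDKN2A and ATM over dTAG Cbodynull (-0.69, -0.49 and -0.42). In dTAG Cbodynull over dTAG mCherry NPM1 was the only gene of the 3 lists to be called (0.62).

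**Figure D5:**
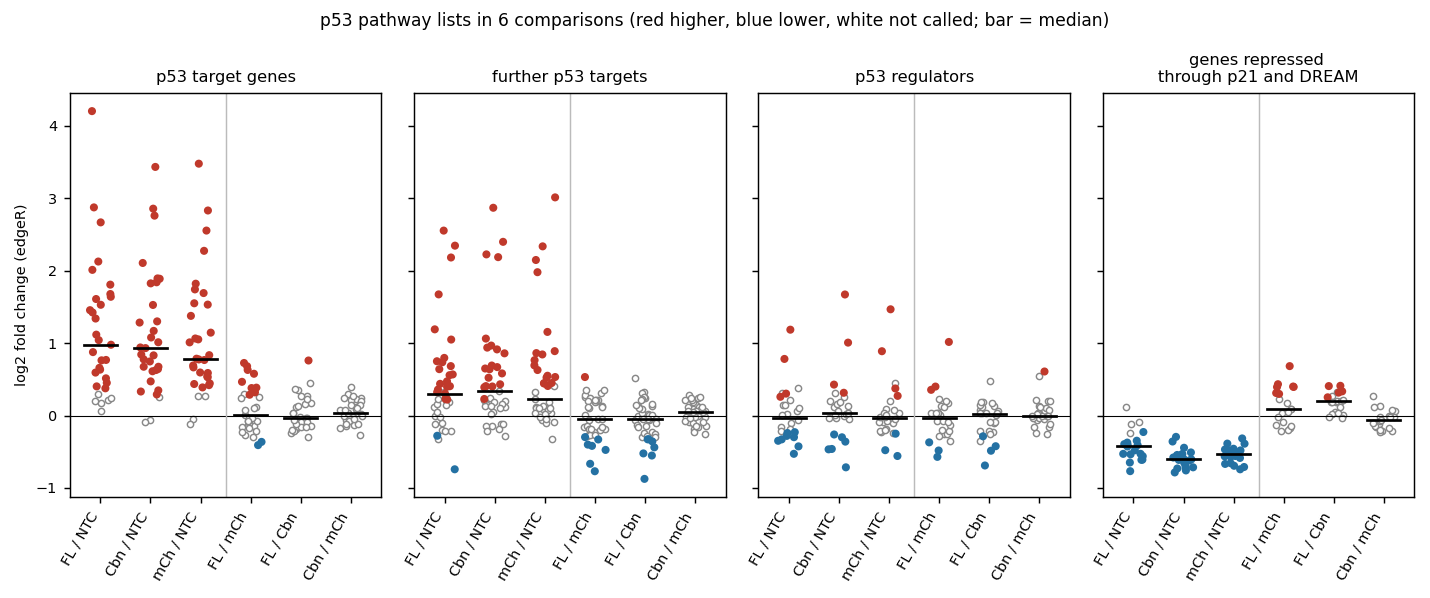
Log2 fold change (vertical axis) of each tested gene in 4 lists, in 6 comparisons (horizontal axis, first group over second: FL, dTAG FL-NPM1c; Cbn, dTAG Cbodynull; mCh, dTAG mCherry; NTC, NTC DMSO); red is called higher, blue called lower, white not called, and bars are medians. The p53 target genes have medians of 0.98, 0.93 and 0.78 over NTC DMSO, and the genes repressed through p21 and DREAM have medians of -0.42, -0.60 and -0.53 (SPATA18 is not drawn).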

How the data were processed

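RNA of 12 libraries (4 groups of 3) was prepared with a kit that keeps strand, per the labels' protocols. From it the authors deposited 1 table of raw counts per gene. STAR, featureCounts, DESeq2 and hg38 are named in the submitters' processing notes, with no versions. Annotation, strand setting and treatment of multi-mapping reads: not given in the sources used here. Columns were matched to samples by library number, which is an inference. Of the lines, 6 broken ones of 2 genes were skipped, and 78930 genes were read.

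The counts were fitted with edgeR 4.0.16 (R 4.3.3), using filterByExpr by group, TMM and 1 robust quasi-likelihood fit of all 12 libraries with a mean per group. P-values were adjusted over 24064 genes (Benjamini-Hochberg). SE is the absolute log2 fold change over the square root of F. CPM is per TMM-scaled total, and FPKM uses GENCODE 29 exon length. Totals were 30519165 to 59925564 counts per library; the intervals on counts cover counting error alone. The fit was checked on artificial counts. Within each group the libraries differed beyond sampling noise, so each was counted as a library. This spread may be technical and does not show that the libraries came from separate cultures.

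The members, lists and naming rule were chosen with earlier results of these data known. Values by library are given for the 2 tested members of each function with the largest change in dTAG mCherry over NTC DMSO, and for members called among dTAG groups; list genes are the called ones with the largest changes, plus MDM4, and some genes the rule names are not reported here. Alternatives were another tool (DESeq2 1.42.0), RLE factors or library totals for scaling, no low-count filter or a stricter one, fitting the compared groups alone, a replicate block, stricter thresholds, and leaving out each library. Promoter sequences are RefSeq's. Python 3.11.15 and matplotlib 3.10.9 were used.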

Additional observations from a re-analysis of the deposited data

How the results depend on the processing

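Members called in dTAG mCherry over NTC DMSO numbered 28 to 29 with a library left out, in dTAG FL-NPM1c over NTC DMSO 25 to 28, in dTAG Cbodynull over NTC DMSO 27 to 29, in dTAG FL-NPM1c over dTAG mCherry 3 to 17, in dTAG FL-NPM1c over dTAG Cbodynull 1 to 2 and in dTAG Cbodynull over dTAG mCherry 0 to 2. Where a 2-fold change was also required the counts were 15, 16, 15, 0, 0 and 0, in that order. At an adjusted p under 0.01, dTAG FL-NPM1c over dTAG mCherry had 3. In dTAG FL-NPM1c over dTAG Cbodynull the count was 2 with DESeq2 and with library totals only, 3 with no low-count filter and 7 with the compared groups alone; in dTAG Cbodynull over dTAG mCherry it was 1 with DESeq2. The cause of these shifts was not tested, apart from the stricter limits and fewer libraries themselves. No member called under any setting changed direction.

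Genes called in all, at an adjusted p under 0.01 and with a log2 limit of 1, were 3196 and 1301 in dTAG mCherry over NTC DMSO (5429 in the reported fit), 3647 and 1282 in dTAG FL-NPM1c over NTC DMSO (6712), 3939 and 1655 in dTAG Cbodynull over NTC DMSO (6389), 1287 and 506 in dTAG FL-NPM1c over dTAG mCherry (3735), 1169 and 506 in dTAG FL-NPM1c over dTAG Cbodynull (2329), and 71 and 19 in dTAG Cbodynull over dTAG mCherry (143). With the compared groups alone they were 3402 in dTAG mCherry over NTC DMSO, 4410 in dTAG FL-NPM1c over dTAG Cbodynull and 63 in dTAG Cbodynull over dTAG mCherry, where DESeq2 gave 375 and no low-count filter 368. Leaving out a library gave 4114 to 5894, 4190 to 7807, 4550 to 7052, 1621 to 6834, 1365 to 2148 and 60 to 1399, in the order of the first list of comparisons.

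Replicate numbers did not pair the libraries: of 18 same-number pairs, 2 had residuals correlated above 0.1 (-0.31 to 0.16), and 0 libraries correlated best with their own number. With the replicate number as a block, members called were 28, 27, 28, 8, 1 and 0, and dTAG Cbodynull over dTAG mCherry had 86 genes called. Low counts limit EDA2R and SPATA18.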
